A study of Mus musculus with 11 samples.

Results

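The Notch genes described here are 10 rows of a table of 23224 mouse genes, chosen by name: the receptors Notch1, Notch2 and Notch3, the ligands Jag1, Jag2, Dll1 and Dll4, and the targets Hes1, Hey1 and Nrarp. All 10 had a row and all 10 passed the filter on low counts, but Dll1 passed only through C57Bl6 replicate 1 and Hey1 only through the constitutive SOX17OE line. Each of these dropped out of the fit when that library was left out. The assay was poly(A) RNA sequencing of 11 libraries from colon cancer organoids, 3-dimensional cultures of tumour epithelium, that all carry the genotype label AKP. No source used here gives the alleles behind that label. There were 3 libraries from organoids re-derived from primary tumours in RAG2KO recipients, immunodeficient mice without mature T and B cells, and 3 from organoids re-derived from primary tumours in immunocompetent C57Bl6 recipients. The tumours had been seeded with naive organoids by colonoscopy, and the cultures were passaged until cancer cells alone remained, so the recipients' own cells were not part of them by intent. There was 1 library of naive organoids with a constitutive SOX17 overexpression construct (constitutive SOX17OE) and 1 with a doxycycline-inducible construct (inducible SOX17OE), both delivered by lentivirus. No source used here states whether the inducible line received doxycycline, or whether a line is 1 clone. The last 3 libraries were naive organoids, which had not been in a mouse. No source used here gives the recipients' ages.

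Notch receptors sit in the membrane and are activated by Jagged and Delta-like ligands on neighbouring cells. The activated receptor is cut by gamma-secretase, and its intracellular part joins RBPJ and a Mastermind protein on DNA to switch on genes of the HES and HEY families. In the intestine, Notch activity is known to keep progenitor cells dividing and to favour the absorptive fate, in part because HES1 represses Atoh1, the factor that drives secretory cells. In mouse arterial endothelium, Sox17 is known to act upstream of Notch genes.

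Library totals ranged from 14109182 to 22154456 expected counts. Levels are given as CPM, the counts relative to library size after TMM scaling. Sox17, the check of the labels, was at 15.4 to 24.4 CPM in RAG2KO tumour-derived, 12.4 to 74.4 in C57Bl6 tumour-derived, 72.7 in constitutive SOX17OE and 4.78 in inducible SOX17OE organoids, against 0.0438 to 0.214 CPM in naive organoids. The 8 epithelial markers summed to between 6512 CPM in constitutive SOX17OE and 11450 CPM in naive organoids. Against naive organoids, 5 of these 8 were called lower in SOX17OE, where 5.92% of all tested genes were. In RAG2KO tumour-derived organoids 3 were called lower, where 13.3% were. In C57Bl6 tumour-derived organoids 3 were called lower and 1 higher, where 5.85% and 9.50% were. The 9 markers of T, B and NK cells summed to at most 0.57 CPM in any library. The 9 myeloid markers summed to 56.2 to 83.5 CPM in RAG2KO tumour-derived, 39.4 to 71.3 in C57Bl6 tumour-derived, 40.75 in constitutive SOX17OE and 29.96 in inducible SOX17OE organoids, against 36.2 to 46.4 CPM in naive organoids. Each RAG2KO library was above each naive one. Of the 5 that were tested in RAG2KO tumour-derived against naive organoids, Cd14, which held most of the sum, was called higher. Its log2 fold change was 0.83 (adjusted p = 0.0167). Csf1r was also called higher (4.04, adjusted p = 0.0336). It passed the filter only through RAG2KO replicate 2, so its excess is a description only. Cd68 (0.63, adjusted p = 0.375), Itgam (2.66, adjusted p = 0.0947) and Ptprc (-0.48, adjusted p = 0.722) were not called. Emr1, Lyz2 and Fcer1g had at most 4 counts and Tyrobp 0 counts in any library. The part of these markers in the differences of the RAG2KO group was not tested. The ribosomal RNA precursor Rn45s took 6.56% to 8.54% of counts in RAG2KO tumour-derived and 6.39% in constitutive SOX17OE organoids, against 2.21% to 3.77% in C57Bl6 tumour-derived, 3.71% in inducible SOX17OE and 2.42% to 4.99% in naive organoids. The RAG2KO libraries therefore did not overlap the C57Bl6 or the naive libraries in this share, and the recipient and the Rn45s share cannot be told apart in this design.

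Few of the 10 genes differed between the groups. A gene was called where the adjusted p of edgeR's quasi-likelihood test, adjusted over 13720 tested genes, was under 0.05. In RAG2KO tumour-derived against naive organoids, 1 of the 10 was called higher (Hes1), where 16.0% of all tested genes were, and 1 lower (Jag2), where 13.3% were. In C57Bl6 tumour-derived against naive organoids 0 of the 10 were called in either direction, where 9.50% of tested genes were called higher and 5.85% lower. Of the 10, 2 had an unadjusted p under 0.05, Hes1 and Notch2, and DESeq2's Wald test called 1, Hes1, where it called 2745 genes in all. In RAG2KO against C57Bl6 tumour-derived organoids 0 were called higher, where 11.8% of tested genes were, and 2 lower (Jag1 and Jag2), where 12.2% were. Over all genes 1618 of 3295 calls were higher in that comparison, and 1290 of 3553 when libraries were scaled by their totals alone. In the mean of both SOX17OE lines against naive organoids 1 was called higher (Hes1), where 6.77% of tested genes were, and 1 lower (Jag1), where 5.92% were. These shares of the members are not set apart from the background.

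**Figure D1:**
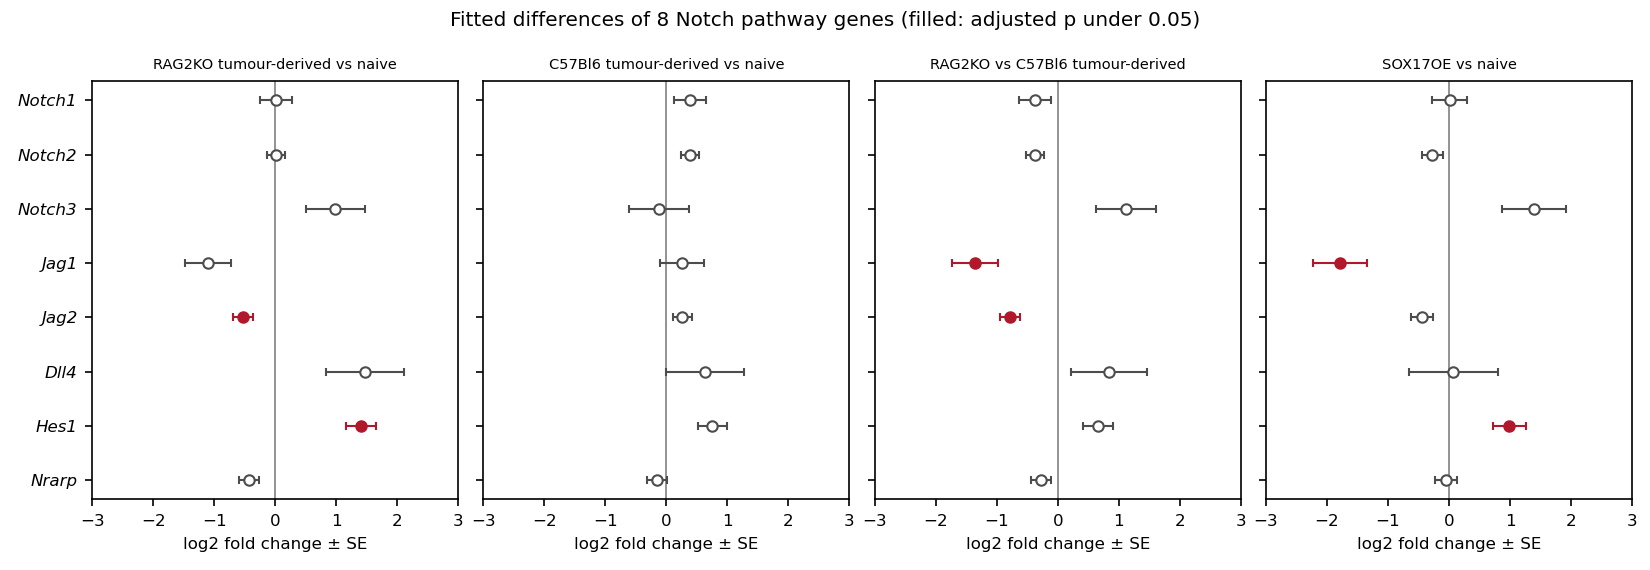
Log2 fold changes (x axis, first group over second) with standard errors for 8 of the 10 genes (y axis) in 4 comparisons; filled points have an adjusted p under 0.05. Hes1 lies at 1.41 in RAG2KO tumour-derived and 0.99 in SOX17OE against naive organoids, and Jag1 lies at -1.35 in RAG2KO against C57Bl6 tumour-derived and -1.79 in SOX17OE against naive organoids; Dll1 and Hey1 are given as counts.

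Among the receptors, none was called in any of the 4 comparisons. Notch1, which is known to act in intestinal progenitors together with Notch2, was at 18.3, 10.04 and 18.2 CPM in RAG2KO tumour-derived, 19.7, 15.5 and 25.3 in C57Bl6 tumour-derived, 19.7 in constitutive SOX17OE and 12.2 in inducible SOX17OE organoids, against 13.2, 18.1 and 14.8 CPM in naive organoids. All the groups of 3 overlapped. The log2 fold changes against naive were 0.01 ± 0.26 (SE) for RAG2KO (adjusted p = 0.982) and 0.39 ± 0.26 for C57Bl6 (adjusted p = 0.35). In a bulk sample, fewer cells that carry a transcript and less of it in each cell cannot be told apart, here or below.

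Notch2 was at 48.7, 52.6 and 50.2 CPM in RAG2KO tumour-derived, 64.8, 57.4 and 73.7 in C57Bl6 tumour-derived, 60.1 in constitutive SOX17OE and 28.6 in inducible SOX17OE organoids, against 43.9, 46.2 and 60.4 CPM in naive organoids. The inducible line was the lowest of the 11 libraries, and each RAG2KO library was below each C57Bl6 library. That difference was -0.37 ± 0.15 on the log2 scale with an adjusted p of 0.0951, so it was not called. Against naive organoids, the C57Bl6 group was 0.38 ± 0.15 higher on the log2 scale (adjusted p = 0.116), which became a call at an adjusted p of 0.0413 without naive replicate 3.

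Notch3, the receptor best known from the mural cells of vessels, was at 4.25, 7.59 and 11.3 CPM in RAG2KO tumour-derived, 1.78, 5.33 and 3.59 in C57Bl6 tumour-derived, 11.3 in constitutive SOX17OE and 9.27 in inducible SOX17OE organoids, against 2.0, 4.30 and 5.29 CPM in naive organoids. Both SOX17OE lines were above each naive library, while the RAG2KO libraries overlapped the naive ones. The log2 fold changes were 1.39 ± 0.53 for SOX17OE (adjusted p = 0.107), 0.99 ± 0.49 for RAG2KO (adjusted p = 0.153) and -0.13 ± 0.49 for C57Bl6 (adjusted p = 0.895), all against naive. Counting error alone puts the ratio of the constitutive line to naive organoids at 2.75 (95% interval 2.27 to 3.34, from 196 against 237 counts) and that of the inducible line at 2.26 (1.84 to 2.77). The 12 fibroblast and mural markers summed to 1.19 to 10.6 CPM in RAG2KO tumour-derived, 1.31 to 2.75 in C57Bl6 tumour-derived, 6.92 in constitutive SOX17OE and 0.874 in inducible SOX17OE organoids, against 0.482 to 0.524 in naive organoids. Of the 4 that were tested, Acta2 was called higher in both tumour-derived groups against naive organoids. Its log2 fold change was 2.89 in RAG2KO (adjusted p = 0.0111) and 2.88 in C57Bl6 tumour-derived organoids (adjusted p = 0.0171). It passed the filter only through tumour-derived libraries, so this excess is a description only. Col3a1 held most of the highest sums, with 7.07 CPM in RAG2KO replicate 2 and 5.24 CPM in the constitutive line. Pdgfrb and Rgs5 had at most 2 counts and Des 0 counts in any library. The part of these markers in the Notch3 values was not tested.

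**Figure D2:**
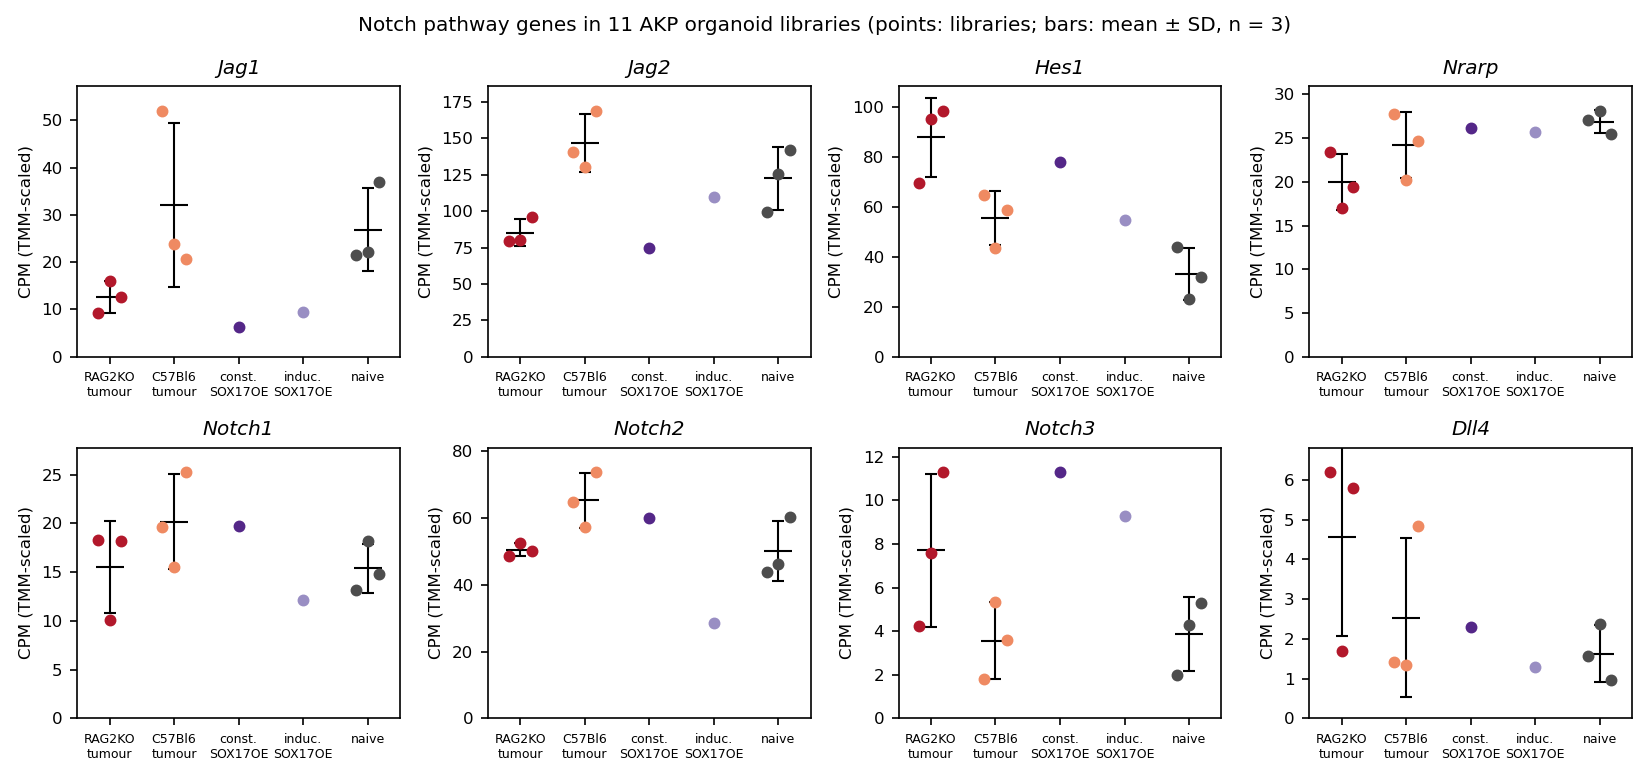
TMM-scaled CPM (y axis, from 0) of 8 genes in each of the 11 libraries, by group (x axis); points are libraries, and bars give the mean ± SD of the groups of 3. Each RAG2KO library lies above each naive library for Hes1 and below each C57Bl6 library for Jag1 and Jag2, and both SOX17OE lines lie below each naive library for Jag1.

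Of the 4 ligands, the Jagged genes were called and the Delta-like genes were not. Jag1 was at 9.23, 16.0 and 12.5 CPM in RAG2KO tumour-derived, 52.0, 23.8 and 20.6 in C57Bl6 tumour-derived, 6.40 in constitutive SOX17OE and 9.50 in inducible SOX17OE organoids, against 21.6, 22.1 and 37.0 CPM in naive organoids. Each RAG2KO library and each SOX17OE line was below each naive and each C57Bl6 library, and C57Bl6 replicate 1 was the highest library. The group means were 12.6 ± 3.38 CPM in RAG2KO tumour-derived, 32.1 ± 17.3 in C57Bl6 tumour-derived and 26.9 ± 8.74 in naive organoids (SD, n = 3 each).

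Jag1 fell in RAG2KO against C57Bl6 tumour-derived organoids, with a log2 fold change of -1.35 ± 0.38 (adjusted p = 0.0298). That call ended without C57Bl6 replicate 1 (adjusted p = 0.0766), RAG2KO replicate 1 (0.0871) or RAG2KO replicate 3 (0.0787), with only the groups compared in the fit (0.0539), and with the Rn45s share as a covariate (adjusted p = 0.581), under which the fold change was -1.78. Jag1 also fell in SOX17OE against naive organoids, with a log2 fold change of -1.79 ± 0.45 (adjusted p = 0.032). The constitutive line was at 0.238 and the inducible line at 0.353 of the naive mean. This call ended without the constitutive line (adjusted p = 0.211), without the inducible line (0.0531), without naive replicate 2 (0.0665) or 3 (0.0946), with limma voom (0.052), and with the Rn45s covariate (0.0928), under which the fold change was -1.99. In RAG2KO tumour-derived against naive organoids the log2 fold change was -1.09 ± 0.38, at an adjusted p of 0.0529, and it was called without C57Bl6 replicate 1 (0.0143) or 3 (0.044), with DESeq2's Wald test (0.0193), with only the groups compared (0.0228) and with library totals (0.037). In C57Bl6 tumour-derived against naive organoids it was 0.26 ± 0.37 (adjusted p = 0.694), and -0.28 without C57Bl6 replicate 1.

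Jag2 was at 79.3, 80.1 and 95.7 CPM in RAG2KO tumour-derived, 141, 130.4 and 169 in C57Bl6 tumour-derived, 74.6 in constitutive SOX17OE and 109.9 in inducible SOX17OE organoids, against 99.6, 126 and 142 CPM in naive organoids. Each RAG2KO library and the constitutive line were below each naive library, and the inducible line lay within the naive range. Jag2 fell in RAG2KO against C57Bl6 tumour-derived organoids, with a log2 fold change of -0.79 ± 0.16 (adjusted p = 0.00907), a call that held with each of the 11 libraries left out in turn (adjusted p at most 0.0349) and ended with the Rn45s covariate (-0.43, adjusted p = 0.717). It fell in RAG2KO tumour-derived against naive organoids by 0.53 ± 0.16 on the log2 scale (adjusted p = 0.0334). That call ended without naive replicate 2 (adjusted p = 0.101) or 3 (0.11), without RAG2KO replicate 1 (0.0849) or 2 (0.1), and with the Rn45s covariate (-0.22, adjusted p = 0.744). The difference was 0.26 ± 0.16 for C57Bl6 (adjusted p = 0.307) and -0.44 ± 0.18 for SOX17OE (adjusted p = 0.132), both against naive organoids.

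The 250 bases before the start sites of Jag1 and Jag2, the ligands that were called, are shown for their different makeup; they come from RefSeq on GRCm38.p6, each 5′ to 3′ in the direction of the gene, at chr2:137116521-137116770 and chr12:112929496-112929745, both on the minus strand. Capitals mark a SOX core (ACAAT, which reads ATTGT on the other strand) in Jag1 and GC boxes (GGGCGG, or CCGCCC on the other strand) in Jag2, a pair of which overlap.
Jag1 promoter: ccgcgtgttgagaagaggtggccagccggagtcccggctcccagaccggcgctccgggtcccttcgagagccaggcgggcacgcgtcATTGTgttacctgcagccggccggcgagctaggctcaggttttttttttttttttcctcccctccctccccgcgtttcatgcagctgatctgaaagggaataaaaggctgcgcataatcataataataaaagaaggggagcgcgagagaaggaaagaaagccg
Jag2 promoter: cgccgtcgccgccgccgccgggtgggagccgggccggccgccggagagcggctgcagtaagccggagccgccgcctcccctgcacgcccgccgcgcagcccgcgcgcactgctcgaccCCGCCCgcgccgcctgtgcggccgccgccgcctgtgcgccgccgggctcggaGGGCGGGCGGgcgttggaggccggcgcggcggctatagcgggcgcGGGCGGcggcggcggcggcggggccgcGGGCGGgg
G and C made up 57.2% of the Jag1 stretch and 87.2% of that of Jag2. Promoter entries were matched for 8 of the 10 genes, all but Hes1 and Hey1, with 9 start sites in all since Dll1 had 2. On either strand, the SOX core was found in 3 of the 9, once in Jag1 (163 bases before the start), once in Nrarp (55 bases before) and 3 times in 1 of the Dll1 stretches, where 27.7% of 32851 promoters of the same length held it. The GC box was found in 6 of the 9, including 5 times in Jag2, against 32.7% of all promoters. The RBPJ core TGGGAA was found in 0 of the 9, against 21.6% of all promoters. These are matches of letters in these windows and say nothing of a factor's binding.

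Dll4, a ligand best known from sprouting vessels and also made by intestinal epithelium, was at 6.20, 1.69 and 5.80 CPM in RAG2KO tumour-derived, 1.42, 1.35 and 4.85 in C57Bl6 tumour-derived, 2.31 in constitutive SOX17OE and 1.28 in inducible SOX17OE organoids, against 1.57, 2.37 and 0.953 CPM in naive organoids. RAG2KO replicates 1 and 3 and C57Bl6 replicate 3 were the 3 highest libraries, and all groups overlapped. Against naive organoids the log2 fold change was 1.48 ± 0.64 for RAG2KO (adjusted p = 0.109) and 0.63 ± 0.64 for C57Bl6 (adjusted p = 0.55), the second being -0.24 without C57Bl6 replicate 3. The 10 endothelial markers summed to 4.45 to 7.94 CPM in RAG2KO tumour-derived, 4.77 to 10.3 in C57Bl6 tumour-derived, 39.3 in constitutive SOX17OE and 8.63 in inducible SOX17OE organoids, against 3.86 to 6.25 in naive organoids. In the constitutive line Tek (26.1 CPM), Vwf (6.51 CPM) and Cdh5 (3.29 CPM) were above the other libraries, and Tie1 was highest in C57Bl6 replicate 2, at 5.89 CPM. Pecam1, Emcn, Erg and Cldn5 had at most 5 counts in any library, and Kdr at most 7. Of the 5 endothelial markers tested, Tek and Cdh5 were called higher in SOX17OE against naive organoids, and Tek in C57Bl6 tumour-derived against naive organoids. Cdh5 passed the filter only through the SOX17OE lines, and Tek through these and C57Bl6 libraries, so these calls are a description only. Vwf (log2 fold change 1.68, adjusted p = 0.0501), Tie1 (-0.08, adjusted p = 0.962) and Esam (-1.38, adjusted p = 0.0972) were not called in SOX17OE against naive organoids. Any part of these in the Dll4 values was not tested. Dll4 overlaps Gm14207 on the opposite strand, which was at 0.934 to 4.30 CPM in RAG2KO tumour-derived, 0.337 to 0.707 in C57Bl6 tumour-derived, 1.90 in constitutive SOX17OE and 2.51 in inducible SOX17OE organoids, against 0.429 to 1.23 in naive organoids. No source used here gives the strand setting of the counting, so reads of the pair may be shared.

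Dll1, a ligand of secretory precursors, was near the limit of detection, with 3, 1 and 2 counts in RAG2KO tumour-derived, 14, 4 and 2 in C57Bl6 tumour-derived, 1 in constitutive SOX17OE and 4 in inducible SOX17OE organoids, against 0, 3 and 4 counts in naive organoids. C57Bl6 replicate 1 held 14 of the 38 counts and is the library through which Dll1 passed the filter, so its excess is a description only. No comparison of Dll1 was called.

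**Figure D3:**
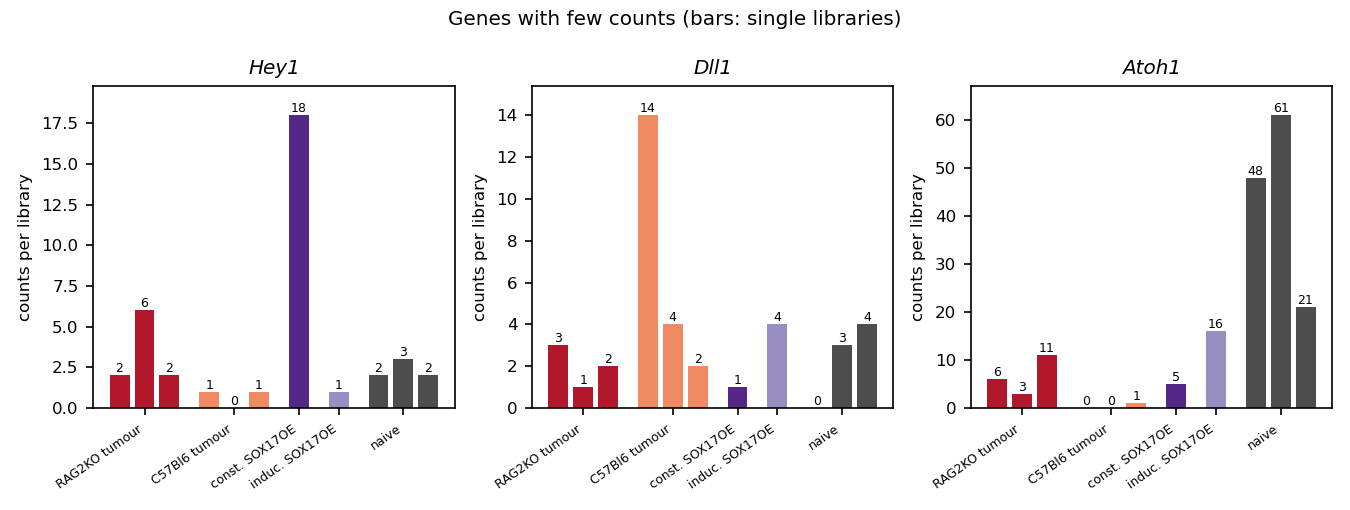
Counts per library (y axis, from 0) of Hey1, Dll1 and Atoh1 in the 11 libraries (x axis, by group), each bar 1 library with its count above it. Hey1 reached 18 counts in constitutive SOX17OE, Dll1 14 in a C57Bl6 library, and Atoh1 was at 0 or 1 count in the C57Bl6 libraries against 21 to 61 in the naive ones.

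Hes1, the repressor that is the standard readout of Notch in the intestine, was the member with the clearest difference. It was at 69.4, 95.3 and 98.5 CPM in RAG2KO tumour-derived, 64.6, 43.5 and 58.6 in C57Bl6 tumour-derived, 77.9 in constitutive SOX17OE and 54.9 in inducible SOX17OE organoids, against 44.1, 23.2 and 31.8 CPM in naive organoids. Each RAG2KO library was above each naive and each C57Bl6 library, both SOX17OE lines were above each naive library, and 1 C57Bl6 library fell inside the naive range. The group means were 87.7 ± 15.9 CPM in RAG2KO tumour-derived, 55.6 ± 10.8 in C57Bl6 tumour-derived and 33.1 ± 10.5 in naive organoids (SD, n = 3 each).

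Hes1 rose 2.66-fold in RAG2KO tumour-derived against naive organoids, a log2 fold change of 1.41 ± 0.25 (adjusted p = 0.00328). It kept its call with each of the 11 libraries left out in turn, with log2 fold changes of 1.21 to 1.66, and lost it with the Rn45s covariate (0.64, adjusted p = 0.38). Hes1 rose 1.98-fold in SOX17OE against naive organoids, a log2 fold change of 0.99 ± 0.27 (adjusted p = 0.0387). The constitutive line was at 2.36 and the inducible line at 1.66 times the naive mean. That call ended without the constitutive line (adjusted p = 0.27), naive replicate 2 (0.111) or 3 (0.11), C57Bl6 replicate 3 (0.055) or RAG2KO replicate 3 (0.05), with only the groups compared (0.0704), and with the Rn45s covariate (0.171). In C57Bl6 tumour-derived against naive organoids the log2 fold change was 0.75 ± 0.24 at an adjusted p of 0.0622, and it was called without naive replicate 1 (0.0386), with DESeq2's Wald test (0.0255) and with the Rn45s covariate (0.0185). The difference between RAG2KO and C57Bl6 tumour-derived organoids, 0.66 ± 0.24, had an adjusted p of 0.0708, was called without naive replicate 1 (0.048), with DESeq2's Wald test (0.0338) and with only the groups compared (0.0483), and turned to -0.29 with the Rn45s covariate.

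Nrarp, which limits Notch signals as a feedback target, was not called in any of the 4 comparisons. It was at 23.4, 17.1 and 19.4 CPM in RAG2KO tumour-derived, 27.7, 20.3 and 24.7 in C57Bl6 tumour-derived, 26.2 in constitutive SOX17OE and 25.7 in inducible SOX17OE organoids, against 27.0, 28.1 and 25.5 CPM in naive organoids. The RAG2KO libraries were each below the naive ones, and both SOX17OE lines lay within the naive range. The log2 fold changes against naive were -0.43 ± 0.16 for RAG2KO (adjusted p = 0.0721, and a call at 0.04 without RAG2KO replicate 1 and at 0.0374 with library totals), -0.15 ± 0.16 for C57Bl6 (adjusted p = 0.58) and -0.05 ± 0.18 for SOX17OE (adjusted p = 0.878).

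Hey1, a relative of Hes1 best known from endothelium, had 2, 6 and 2 counts in RAG2KO tumour-derived, 1, 0 and 1 in C57Bl6 tumour-derived, 18 in constitutive SOX17OE and 1 in inducible SOX17OE organoids, against 2, 3 and 2 counts in naive organoids. The constitutive line was the highest and is the library through which Hey1 passed the filter, so its excess is a description only. Tek, Cdh5 and Vwf were also highest in the constitutive line, and their part was not tested. The other endothelial markers listed were highest in other libraries, with Esam and Tie1 highest in C57Bl6 replicate 2. No comparison of Hey1 was called.

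Levels of different genes were set side by side per kilobase of exon, and so depend on the annotated exon lengths used. Hes1 was the most abundant of the 10 in RAG2KO tumour-derived (43.1 CPM per kb), C57Bl6 tumour-derived (27.3) and the mean of the SOX17OE lines (32.6). In naive organoids Hes1 was at 16.2 CPM per kb, where Jag2 was at 17.6. Hes1 and Jag2 overlapped between libraries in C57Bl6 tumour-derived organoids, at 21.4 to 31.7 and 18.7 to 24.3 CPM per kb, and in naive organoids, at 11.4 to 21.7 and 14.3 to 20.4. Nrarp (10.4 CPM per kb in naive organoids), Notch2 (4.65) and Jag1 (4.62) followed, then Notch1 (1.08), Notch3 (0.478) and Dll4 (0.423); Notch2 and Jag1 overlapped between naive libraries, as did Notch3 and Dll4. Notch2 exceeded Notch1 per kilobase in 11 of 11 libraries, by 3.10 to 6.91 times, and Jag2 exceeded Jag1 in 11 of 11, by 2.27 to 9.75 times. The Jag2 to Jag1 ratio was highest in the SOX17OE lines, at 9.75 in constitutive and 9.68 in inducible SOX17OE organoids, against 3.21 to 4.76 in naive organoids. Per kilobase, Notch1 exceeded Notch3 in 7 of 11 libraries, among them each C57Bl6 and each naive library, 1 RAG2KO library and neither SOX17OE line. That order rests on union exon lengths of 14232 bases for Notch1 and 8089 for Notch3, since in CPM Notch1 was above Notch3 in each library.

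Beyond the 10 genes, 59 other pathway genes were listed by role, and 48 passed the filter. In RAG2KO tumour-derived against naive organoids 7 rose and 9 fell, with a median log2 fold change of -0.15 over the 48 beside 0.02 over all tested genes. These are 14.6% and 18.8% of the 48, where 16.0% and 13.3% of all tested genes were called higher and lower. In C57Bl6 tumour-derived against naive organoids 7 rose and 1 fell (14.6% and 2.08%, where 9.50% and 5.85% of all tested genes did; median 0.08 beside 0.02). In RAG2KO against C57Bl6 tumour-derived organoids 4 rose and 10 fell (8.33% and 20.8%, where 11.8% and 12.2% did; median -0.27 beside -0.00), and in SOX17OE against naive organoids 2 rose and 4 fell (4.17% and 8.33%, where 6.77% and 5.92% did; median -0.15 beside -0.01). The calls held with each of the 11 libraries left out in turn for 7 of 16, 4 of 8, 7 of 14 and 0 of 6 of these genes. Where a call ended, the library named below is the one whose absence gave the highest adjusted p, and others could end it too. In RAG2KO against C57Bl6 tumour-derived organoids Fbxw7 lost its call in 8 of the 11 such fits, and Rfng and Ep300 in 7. Hes6 lost its call in SOX17OE against naive organoids in 7. With the Rn45s covariate, calls over all genes went from 4010 to 148, 2106 to 1468, 3295 to 2 and 1741 to 267. Of the listed genes, 0 of the 16, 4 of the 8, 0 of the 14 and 0 of the 6 stayed called with this covariate. Their fold changes kept their sign with it in all of these, and were at least as large as reported in 10 of the 16, 2 of the 8, 4 of the 14 and 2 of the 6.

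Of the ligases that act on ligands, Neurl1a rose and Neurl1b fell. Neurl1a rose in RAG2KO tumour-derived against naive organoids (log2 fold change 1.93 ± 0.31, adjusted p = 0.00233) and in C57Bl6 tumour-derived against naive organoids (1.95 ± 0.31, adjusted p = 0.00293), with 9.42 and 9.61 CPM against 2.46 CPM in naive organoids. Neurl1b fell in RAG2KO tumour-derived against naive organoids (-2.41 ± 0.39, adjusted p = 0.00224), in RAG2KO against C57Bl6 tumour-derived organoids (-1.48 ± 0.38, adjusted p = 0.0215; 0.0584 without C57Bl6 replicate 3) and in SOX17OE against naive organoids (-2.0 ± 0.44, adjusted p = 0.0201; 0.15 without the constitutive line). Mib1, the main ligase for ligand uptake in mice, fell in RAG2KO against C57Bl6 tumour-derived organoids (-0.91 ± 0.16, adjusted p = 0.00556) and against naive organoids (-0.57 ± 0.16, adjusted p = 0.027; 0.088 without naive replicate 3).

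Most genes of receptor glycosylation and cleavage were not called in any comparison. Pofut1, which adds the fucose that Notch needs, fell in RAG2KO against C57Bl6 tumour-derived organoids (-0.71 ± 0.16, adjusted p = 0.0122), as did the fucose-extending enzyme Rfng (-0.57 ± 0.18, adjusted p = 0.0416; 0.12 without RAG2KO replicate 2). Of the 10 cleavage genes, the gamma-secretase subunit Psenen rose in RAG2KO tumour-derived against C57Bl6 tumour-derived organoids (0.52 ± 0.11, adjusted p = 0.0103) and against naive organoids (0.45 ± 0.11, adjusted p = 0.0144; 0.0611 without naive replicate 2). Aph1b, another subunit, rose in RAG2KO tumour-derived (1.64 ± 0.32, adjusted p = 0.0052) and C57Bl6 tumour-derived organoids (1.37 ± 0.32, adjusted p = 0.0168; 0.0792 without naive replicate 2) against naive ones. Its near-identical copy Aph1c was at 0.337 to 1.07 CPM in the 11 libraries, and reads of the pair may have been split between them.

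In the nuclear complex, Rbpj and Maml1 fell in 3 of the 4 comparisons, which share RAG2KO or naive libraries and so are not independent. Rbpj, the DNA-binding partner of Notch, was at 43.3, 63.6 and 50.1 CPM in RAG2KO tumour-derived, 95.1, 86.6 and 82.2 in C57Bl6 tumour-derived, 56.1 in constitutive SOX17OE and 47.5 in inducible SOX17OE organoids, against 77.6, 74.2 and 120.7 CPM in naive organoids. Each RAG2KO library and each line was below each naive and each C57Bl6 library. Its log2 fold change was -0.80 ± 0.21 in RAG2KO tumour-derived against naive organoids (adjusted p = 0.0179; 0.0523 without RAG2KO replicate 1), -0.75 ± 0.21 in RAG2KO against C57Bl6 tumour-derived organoids (adjusted p = 0.0272; 0.0786 without RAG2KO replicate 3) and -0.82 ± 0.23 in SOX17OE against naive organoids (adjusted p = 0.047; 0.157 without the constitutive line). Maml1, a coactivator, had log2 fold changes of -0.63 ± 0.18, -0.70 ± 0.18 and -0.97 ± 0.21 in the same comparisons (adjusted p = 0.0296, 0.0236 and 0.0198), all of them lost when 1 library was left out (0.106 without naive replicate 3, 0.0776 without C57Bl6 replicate 3 and 0.101 without the constitutive line). Its relative Maml2 rose in C57Bl6 tumour-derived (1.84 ± 0.33, adjusted p = 0.00488) and RAG2KO tumour-derived organoids (1.21 ± 0.32, adjusted p = 0.0209; 0.0879 without naive replicate 2) against naive ones. The coactivator Ep300 fell in RAG2KO tumour-derived against naive organoids (-0.62 ± 0.19, adjusted p = 0.0334; 0.117 without naive replicate 3) and against C57Bl6 tumour-derived organoids (-0.59 ± 0.19, adjusted p = 0.0458; 0.13 without C57Bl6 replicate 3).

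Among 9 corepressors, Tle2 rose in RAG2KO tumour-derived against naive organoids, at 3.84, 8.29 and 4.74 CPM, against 0.143, 0.351 and 0.429 CPM in naive organoids. The libraries did not overlap, and the log2 fold change was 4.12 ± 0.48 (adjusted p = 0.000558). Tle2 passed the filter only through tumour-derived and SOX17OE libraries, so its excess over naive organoids, here and below, is a description only. It was higher in RAG2KO than in C57Bl6 tumour-derived organoids, by 2.45 ± 0.44 (adjusted p = 0.00535), and higher in C57Bl6 tumour-derived than in naive organoids, by 1.67 ± 0.48 (adjusted p = 0.0407; 0.126 without naive replicate 1). Spen, which represses RBPJ targets, fell in RAG2KO against C57Bl6 tumour-derived organoids (-1.0 ± 0.21, adjusted p = 0.0098) and against naive organoids (-0.76 ± 0.21, adjusted p = 0.0242; 0.0831 without naive replicate 3), and Ncor1 fell in the second of these (-0.56 ± 0.16, adjusted p = 0.024; 0.0769 without naive replicate 3).

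Of the Deltex and turnover genes, Dtx3 and Dtx3l rose while Dtx4 fell. Dtx3 rose in RAG2KO tumour-derived (2.20 ± 0.35, adjusted p = 0.00213), C57Bl6 tumour-derived (1.32 ± 0.34, adjusted p = 0.029; 0.113 without naive replicate 1) and SOX17OE organoids (1.45 ± 0.37, adjusted p = 0.034; 0.15 without the constitutive line), all against naive ones. Dtx3l rose in RAG2KO (0.97 ± 0.19, adjusted p = 0.00613) and C57Bl6 tumour-derived organoids (0.90 ± 0.19, adjusted p = 0.0123) against naive ones. Dtx4 was at 4.72, 4.38 and 3.06 CPM in RAG2KO tumour-derived, 11.9, 9.09 and 8.54 in C57Bl6 tumour-derived, 2.88 in constitutive SOX17OE and 11.1 in inducible SOX17OE organoids, against 12.1, 14.0 and 11.4 CPM in naive organoids. The constitutive line was far below the inducible one, which lay just under the naive range. Dtx4 fell in RAG2KO tumour-derived against naive (-1.63 ± 0.23, adjusted p = 0.00132) and against C57Bl6 tumour-derived organoids (-1.28 ± 0.23, adjusted p = 0.00575), and in SOX17OE against naive organoids (-1.14 ± 0.26, adjusted p = 0.023; -0.17 and 0.809 without the constitutive line). Fbxw7, the ligase that degrades active Notch, fell in RAG2KO against C57Bl6 tumour-derived organoids (-0.48 ± 0.16, adjusted p = 0.0494; 0.132 without RAG2KO replicate 3). Numbl, a relative of the Notch inhibitor Numb, rose in C57Bl6 tumour-derived against naive organoids (1.85 ± 0.53, adjusted p = 0.0399; 0.143 without naive replicate 2).

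**Figure D4:**
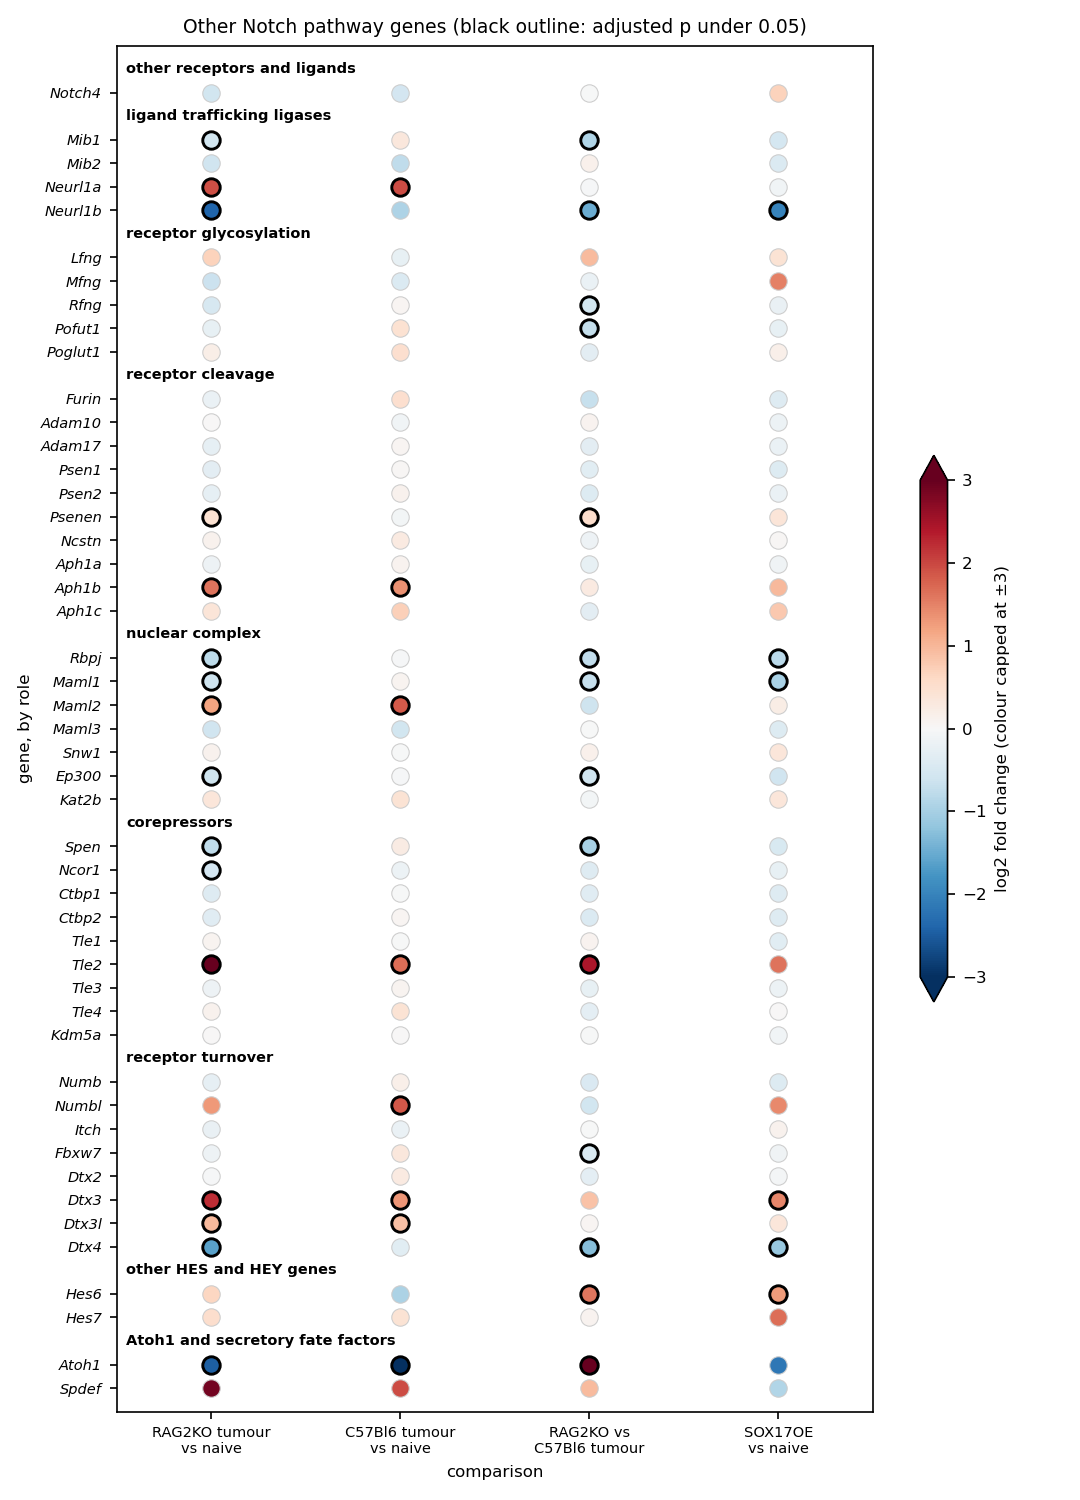
Log2 fold changes (colour, capped at ±3) of the 48 tested pathway genes that are not among the 10, by role (y axis) and comparison (x axis); a black outline marks an adjusted p under 0.05. Rbpj and Maml1 are blue with an outline in 3 columns and Tle2 is red with an outline in 3 columns, while most genes of receptor cleavage are pale and not outlined. Tle2 passed the filter only through libraries outside the naive group, so its outlines against naive organoids are a description only.

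Hes6, a HES relative that does not act as HES1 does and favours differentiation in other tissues, was at 332, 283 and 513 CPM in RAG2KO tumour-derived, 80.5, 121 and 172 in C57Bl6 tumour-derived, 515 in constitutive SOX17OE and 663 in inducible SOX17OE organoids, against 286, 275 and 156 CPM in naive organoids. Each RAG2KO library was above each C57Bl6 library, and both lines were above the naive ones. It rose in RAG2KO against C57Bl6 tumour-derived organoids (1.60 ± 0.34, adjusted p = 0.0107) and in SOX17OE against naive organoids (1.29 ± 0.36, adjusted p = 0.045; 0.139 without the constitutive line). Atoh1, which HES1 is known to repress, had 6, 3 and 11 counts in RAG2KO tumour-derived, 0, 0 and 1 in C57Bl6 tumour-derived, 5 in constitutive SOX17OE and 16 in inducible SOX17OE organoids, against 48, 61 and 21 counts in naive organoids. Its ratio to naive was 0.185 in RAG2KO tumour-derived organoids (95% counting interval 0.11 to 0.298) and 0.00784 in C57Bl6 tumour-derived organoids (0.000197 to 0.0445). It was called lower against naive in both (adjusted p = 0.0259 and 0.00215, the first at 0.0843 without naive replicate 2) and higher in RAG2KO than in C57Bl6 tumour-derived organoids (adjusted p = 0.0217; 0.0679 without RAG2KO replicate 3). In SOX17OE against naive organoids it was not called.

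The genes whose log2(CPM + 1) was most like that of a member over the 11 libraries, out of 10817 candidates, are a description with no test, since the libraries share groups and depth. They were Znf512b (Pearson r = 0.947), Aplp2 (0.941) and AI846148 (0.938) for Hes1, Cds2 (0.975), Mgat1 (0.973) and B3gnt3 (0.963) for Jag1, and Tmem201 (0.975), Camta2 (0.961) and Carm1 (0.958) for Jag2. For Nrarp they were Nln (0.941), Smn1 (0.932) and Pitrm1 (0.932), and for Notch2 Snx33 (0.962), Srpr (0.952) and Bcl6 (0.922). For Notch1 they were Dus3l (0.902), Fam100a (0.883) and Brd3 (0.859), for Notch3 Tmem134 (0.923), Pex19 (0.921) and 9330133O14Rik (0.912), and for Dll4 Ccpg1 (0.924), Nr2f6 (0.909) and Cpn1 (0.882). Those of Dll1 (Krt27, 0.909; Cybrd1, 0.842; St3gal4, 0.838) and Hey1 (2700046A07Rik, 0.976; Pikfyve, 0.958; Oas2, 0.956) follow genes with few counts, each high in 1 library. Among the members themselves, Jag1 and Jag2 had r = 0.744, Jag1 and Notch3 -0.705, and Jag1 and Hes1 -0.461.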

How the data were processed

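Bowtie, RSEM and the mm9 build are named in the submitters' processing notes, with no role stated; their versions, the annotation and the strand setting are not given in the sources used. Libraries were poly(A)-selected and directional, per the labels' protocols. The deposited values are the authors' expected counts per gene, for 23224 gene names. 0 columns lacked a sample.

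Rounded counts passed filterByExpr on the 5 groups (13720 genes kept) and TMM scaling. One robust quasi-likelihood fit covered all 11 libraries (edgeR 4.0.16, R 4.3.3; common dispersion 0.0641). Tests were two-sided with Benjamini-Hochberg adjustment over all tested genes. Standard errors were taken as |log2 fold change| over the root of F. Each SOX17OE line has 1 library and is assumed to vary like the other groups; a line alone got no test. Nothing in the sources used here says that replicates came from separate cultures or mice, so p-values measure only the spread between these samples. Library totals of 14109182 to 22154456 limit precision; exact 95% intervals of counts cover counting error only.

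The 10 genes, the lists and the tests were chosen with earlier results of these data known. The text names all 10 and, from each pathway list in each comparison, the first 4 called genes by adjusted p. One further gene is not reported here. For each of the 10 it adds the 3 other tested genes, of at least 5 CPM in their highest group, with the highest Pearson r. Single marker genes and Gm14207 were picked with their values known. Other settings tried were the Wald test of DESeq2 1.42.0, limma 3.58.1 voom, DESeq2 size factors, library totals, no filter, 1 CPM in 3 libraries, each library left out, only the groups compared, and a replicate block. The Rn45s covariate and a fit of 9 libraries were added after seeing the data. The edgeR fit was also run on simulated data in which some genes were changed in the RAG2KO group alone. That run did not assess the SOX17OE comparison. Levels per kilobase use union exon lengths of GENCODE vM21, and promoter sequences are RefSeq's on GRCm38.p6, so no coordinates of mm9 are given.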

Additional observations from a re-analysis of the deposited data

Results flagged for a closer look

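RAG2KO and C57Bl6 tumour-derived organoids differed in 16 of the described genes by the direct test between them (edgeR, adjusted p under 0.05). That is 27.6% of the 58 tested, where 24.0% of all tested genes were called in that comparison. On the log2 scale, RAG2KO minus C57Bl6, Jag1 differed by -1.35 and Jag2 by -0.79. Other genes lower in RAG2KO were Mib1 (-0.91), Neurl1b (-1.48), Rfng (-0.57), Pofut1 (-0.71), Rbpj (-0.75), Maml1 (-0.70), Ep300 (-0.59), Spen (-1.0), Fbxw7 (-0.48) and Dtx4 (-1.28). Those higher in RAG2KO were Psenen (0.52), Tle2 (2.45), Hes6 (1.60) and Atoh1 (4.12, a fitted value that rests on 1 count over the C57Bl6 libraries). With the Rn45s covariate 0 of these 16 stayed called, where calls over all genes went from 3295 to 2. Of the 16, 16 kept their sign, and 5 had a fold change at least as large. The calls of 1 of the 2 members and 7 of the 14 other genes ended when 1 library was left out. The recipient and the Rn45s share cannot be told apart in this design.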

How the results depend on the processing

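Each alternative changed 1 choice, with exceptions. DESeq2's Wald test also brings its own size factors, and the replicate block covers only 9 libraries. With only the groups compared, both SOX17OE lines were also taken as 1 group. The difference between the lines, which is not part of the spread in the reported fit, then entered it. In SOX17OE against naive organoids, the calls of Hes1 (adjusted p = 0.0704), Dtx4 (0.319), Rbpj (0.0837) and Maml1 (0.0584) then ended. Those of Jag1, Neurl1b, Dtx3 and Hes6 held. With DESeq2's Wald test 2711 genes were called in SOX17OE against naive organoids, against 1741 in the reported fit. In C57Bl6 tumour-derived against naive organoids that test called 2745 genes and 1 member, against 2106 genes in the reported fit. With limma voom 1630 genes and 1 member were called in SOX17OE against naive organoids. With library totals 4233 genes and 4 members were called in RAG2KO tumour-derived against naive organoids, against 4010 genes with TMM. In RAG2KO against C57Bl6 tumour-derived organoids 1290 of 3553 calls were higher with library totals, where 1618 of 3295 were with TMM. With only the groups compared, 864 genes and 1 member were called in SOX17OE against naive organoids, 594 of the 864 higher.

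With the Rn45s covariate, added after seeing the data, 148 genes and 0 members were called in RAG2KO tumour-derived against naive organoids. In RAG2KO against C57Bl6 tumour-derived organoids 2 genes and 0 members were called, and 267 and 0 in SOX17OE against naive organoids. In C57Bl6 tumour-derived against naive organoids 1468 genes and 1 member (Hes1) were called. The covariate turned the sign of Dll1 (-0.10) and Hey1 (-0.32) in RAG2KO tumour-derived against naive, of Hes1 (-0.29) in RAG2KO against C57Bl6, and of Dll1 (-0.094) in SOX17OE against naive organoids, on the log2 scale.

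With 1 library left out, calls ranged from 2041 to 4184 genes and 1 to 3 members in RAG2KO tumour-derived against naive, 1030 to 2328 and 0 to 1 in C57Bl6 tumour-derived against naive, 1857 to 3311 and 1 to 3 in RAG2KO against C57Bl6, and 85 (without the constitutive line) to 1931 and 0 to 2 in SOX17OE against naive organoids. Dll1 without C57Bl6 replicate 1 and Hey1 without the constitutive line could not be fitted. Uncalled genes near 0 changed sign. In RAG2KO tumour-derived against naive organoids, log2 fold changes spanned -0.13 to 0.25 for Notch1, -0.086 to 0.16 for Notch2 and -0.33 to 0.68 for Dll1. In C57Bl6 tumour-derived against naive organoids they spanned -0.53 to 0.19 for Notch3, -0.28 to 0.56 for Jag1 and -0.24 to 1.02 for Dll4. In SOX17OE against naive organoids they spanned -0.34 to 0.36 for Notch1, -0.81 to 0.26 for Notch2, -0.93 to 0.97 for Dll1 and -0.35 to 0.49 for Dll4. With library totals Notch1 (-0.080) and Notch2 (-0.078) in RAG2KO tumour-derived, and Notch1 (-0.037) and Dll1 (-0.030) in SOX17OE against naive organoids changed sign, as did Notch1 with limma voom (-0.06) in RAG2KO tumour-derived organoids. The causes were not tested.

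Same-numbered libraries of different groups deviated together by r of -0.19 to 0.18, and differently numbered ones by -0.25 to 0.17. No pairing by number was seen, though so few libraries cannot exclude it. With the number as a replicate block, in the 9 libraries that carry one, Notch1 in RAG2KO tumour-derived against naive organoids was -0.027, Jag1 in RAG2KO against C57Bl6 had an adjusted p of 0.074, and Notch3 was called in RAG2KO tumour-derived against naive (0.0357) and against C57Bl6 organoids (0.0308). The block called 3453, 1737 and 2688 genes in RAG2KO against naive, C57Bl6 against naive and RAG2KO against C57Bl6 organoids, and 3904, 2089 and 3233 without a block in the same 9 libraries. SOX17OE has no such fit, since the lines carry no number.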
